A study of Mus musculus with 6 samples.

Results

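The 10 genes described here take part in handling iron and heme in the duodenum, or in its control: Cybrd1, Slc11a2, Slc46a1, Fth1, Ftl1, Slc40a1, Heph, Tfrc, Hmox1 and Epas1. They were taken by gene symbol, each matched 1 of the 23699 deposited gene models, and together they hold 14 of the 30028 deposited transcript models. RNA had been sequenced from the duodenum of mice aged 6 weeks on a mixed background, cut as the 2 cm next to the stomach. The 3 controls were Nkx2.2flox/+, with 1 floxed allele of the transcription factor gene Nkx2-2 and no Cre listed. The 3 mutants were Nkx2.2flox/flox; Villin-Cre/+, in which the villin promoter drives the recombinase Cre in the intestinal epithelium, and mutant 3 also carried the reporter Rosa26Tomato/+. All 6 samples thus shared at least 1 floxed allele, and Villin-Cre was listed in the mutants alone, so an effect of Cre itself cannot be told apart from that of the deletion.

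Dietary iron is absorbed mainly in the duodenum. Villus enterocytes reduce ferric iron at the brush border, import it as ferrous iron, keep what is not needed in ferritin, and pass the rest to the blood through a single exporter that works with a ferroxidase. When cells are short of iron, iron regulatory proteins bind hairpins called iron-responsive elements (IREs): in a 5′ UTR this blocks translation, and in a 3′ UTR it can protect the transcript from decay. A second, transcriptional layer is HIF-2 alpha, the hypoxia-inducible factor encoded by Epas1, which drives the uptake and export genes in iron deficiency. RNA levels therefore report on the second layer and on transcript decay, but not on translation.

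To show the hairpins through which iron regulatory proteins can read these RNAs, the UTRs of the members were searched for them in the mm9 mouse genome with GENCODE transcripts, on the transcript strand. The pattern was a C, 5 stem bases, the loop CAGTGN, and 5 bases that pair with the stem (G-U pairs allowed), or 6 bases with 1 of them unpaired. In all, 8 sites in 5 of the 10 genes matched, shown 5′ to 3′ with the bulged C and the 6 loop bases in capitals.
Fth1 5′ UTR: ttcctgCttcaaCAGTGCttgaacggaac
Ftl1 5′ UTR: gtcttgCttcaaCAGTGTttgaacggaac
Slc40a1 5′ UTR: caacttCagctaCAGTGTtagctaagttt
Slc11a2 3′ UTR: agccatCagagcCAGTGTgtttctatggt
Tfrc 3′ UTR, the first site: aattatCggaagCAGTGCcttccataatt
Tfrc 3′ UTR, the second site: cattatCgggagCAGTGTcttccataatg
Tfrc 3′ UTR, the third site: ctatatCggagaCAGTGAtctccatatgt
Tfrc 3′ UTR, the fourth site: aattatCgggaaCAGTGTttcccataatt
The Fth1 site lies at chr19:10057222-10057250 on the plus strand, in exon 1. The Ftl1 site lies at chr7:52715149-52715177 and the Slc40a1 site at chr1:45982310-45982338, both on the minus strand in exon 1. The Slc11a2 site, the only one here with an unpaired base in its stem, lies at chr15:100225584-100225612 on the minus strand, in the last of 16 exons. The 4 Tfrc sites lie on the plus strand in the last of 19 exons, at chr16:32631305-32631333, chr16:32631684-32631712, chr16:32631749-32631777 and chr16:32631796-32631824. The fully paired pattern was found in a 5′ UTR of 0.161% of 19854 genes and in a 3′ UTR of 0.623% of 19915, and the form with 1 unpaired base in 0.252% and 1.06%. No match to these patterns was found in the annotated UTRs of Cybrd1, Heph, Hmox1, Slc46a1 or Epas1. That says nothing of hairpins of another form or outside these models, and Epas1 RNA is itself known as an IRE-containing target through its 5′ UTR.

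Depth was 21.0 to 26.3 M fragments per library. All 10 villus enterocyte markers examined were expressed, and their summed FPKM (fragments scaled for transcript length and library depth) was 36614, 35192 and 17136 in controls 1 to 3 and 35416, 45096 and 20958 in mutants 1 to 3, lowest in both libraries numbered 3 and highest in mutant 2. These 2 libraries numbered 3 also held Reg3b, an antimicrobial lectin, at 42934 and 47743 FPKM, against 207 to 5823 in the other 4. The targeted gene Nkx2-2 was at 0.779 to 1.32 FPKM in the controls and 0.221 to 1.10 in mutants, so the gene-level values overlapped. Its 2049-base model was at 0.464 to 1.07 FPKM in the controls against 7.37e-09 to 0.130 in mutants. Its 1354-base model was at 0.184 to 0.315 in the controls and at 1.02, 0.736 and 0.0912 in mutants 1 to 3. All these levels are low, and which exons are floxed is not given in the sources used here. Other tissue markers differed between libraries too: 8 exocrine pancreas markers summed to 9440 to 14706 FPKM in the controls and 2060 to 8716 in mutants, without overlap. The 8 Brunner gland and stomach markers, 5 of which reached 0.5 FPKM in at least 3 libraries, summed to 2137 to 6751 and 107 to 3704. Nearly all of that sum was Tff2, at 2096, 6296 and 2379 FPKM in the controls and 3639, 855 and 104 in mutants. Xist, the RNA that coats the inactive X, was at 19.7 and 22.5 FPKM in mutants 2 and 3 and at most 0.0894 in the other 4 libraries, and the Y-linked Ddx3y was at 0.047 and 0.011 in those 2 and 11.4 to 13.8 in the others. The labels give no sex, and by these RNAs the controls were all male-like and 2 of the 3 mutants female-like; the part of sex in the comparisons was not tested. In bulk tissue, fewer cells of a type and less RNA per cell cannot be told apart. The labels do not say that each library came from a separate animal, so p-values cover only the variation among these libraries.

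None of the 10 iron and heme genes passed the test between control and mutant duodenum, and the width of the intervals differed widely between genes, from 0.83 to 1.24 for the fold of Epas1 to 0.41 to 3.12 for Slc11a2. Each gene was compared as log2(FPKM + 0.5) with limma over the 13596 genes that reached 0.5 FPKM in 3 or more libraries, at a Benjamini-Hochberg adjusted p under 0.05. Of the 10 members 0 were called, against 0.0221% of all genes (3 genes: Ghrl, Tac1 and the small RNA Snora17), and 0 had an unadjusted p under 0.05, against 3.43% of all genes. In no member were the 3 controls and the 3 mutants fully separated, against 7.75% of all genes. The estimated log2 change was above 0 for all 10 members, with a median of 0.10 beside -0.02 over all genes tested, but 8 of the 10 changed sign in at least 1 other setting or when 1 library was left out. The adjusted p was 0.999 for every member, and exact two-sided permutation tests over the 6 libraries gave p = 0.3 to 0.9, where 3 against 3 cannot go below 0.1.

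**Figure D1:**
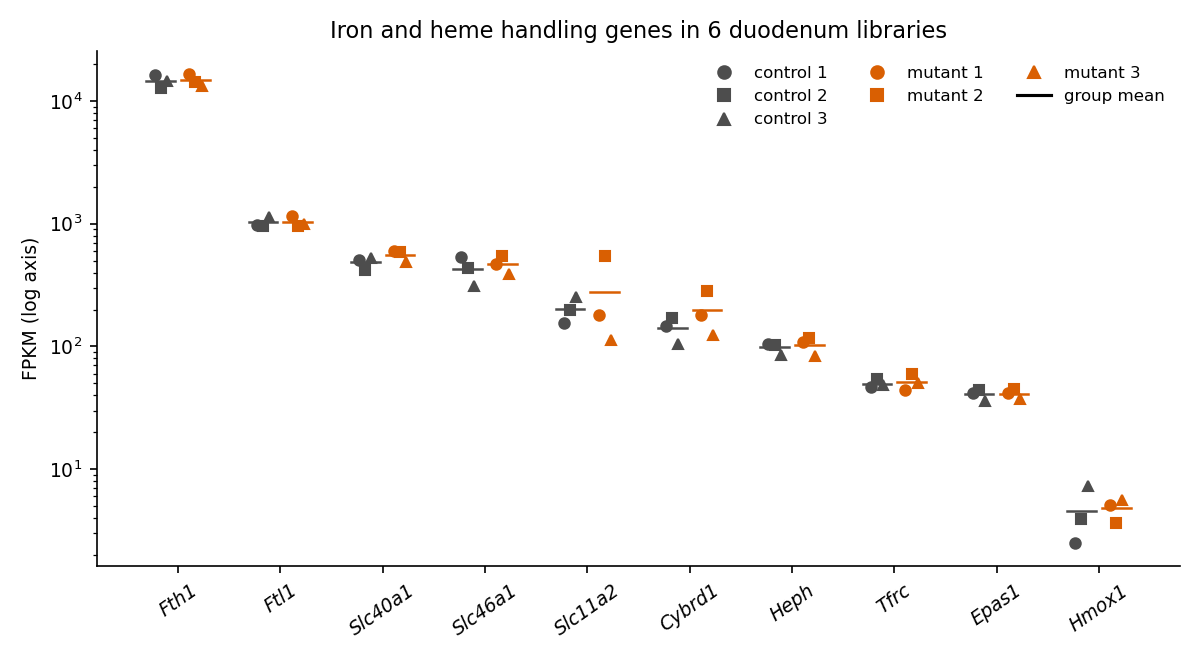
FPKM (log axis) of the 10 genes in each of the 6 libraries, ordered by mean. Gray symbols are controls, orange symbols mutants, the symbol shape gives the replicate number and short lines are group means; control and mutant values overlap for every gene, and Slc11a2 in mutant 2 lies farthest from its group.

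The members spanned more than 3 orders of magnitude. By mean FPKM over the 6 libraries, which is a level per transcript length, the order was Fth1 (14641), Ftl1 (1034), Slc40a1 (522), Slc46a1 (447), Slc11a2 (240.5), Cybrd1 (169), Heph (100.4), Tfrc (50.6), Epas1 (40.9) and Hmox1 (4.68). Fth1 and Ftl1 stood above their lower neighbour in the order without overlap between the 6 values of each, and so did Heph above Tfrc and Epas1 above Hmox1. The ranges of Slc40a1 and Slc46a1, Slc46a1 and Slc11a2, Slc11a2 and Cybrd1, Cybrd1 and Heph, and Tfrc and Epas1 overlapped. Within each of the 6 libraries, however, Cybrd1 was above Heph and Tfrc above Epas1, while the order of the other overlapping pairs was not the same in every library. Ferritin RNA made up 87.4% to 92.0% of the summed FPKM of the 10 genes in a library.

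Cybrd1 encodes duodenal cytochrome b, the brush border ferrireductase (chr2:70956111-70980983, mm9). It was at 147, 172 and 105 FPKM in the controls 1 to 3 and at 181, 285 and 124 in mutants 1 to 3, with means of 141 ± 33.9 and 197 ± 81.5 (SD, n = 3 each). Mutants 1 and 2 lay above all controls and mutant 3 lay within their range. The estimated log2 change of 0.42 ± 0.33 (SE), a fold of 1.34, had a 95% interval for the fold of 0.78 to 2.30 (limma adjusted p = 0.999, exact permutation p = 0.4). Cybrd1 was the only member whose mutant value was above the control of the same replicate number in all 3 cases, by 0.30, 0.73 and 0.24 on the log2 scale. The share of all genes with that order was not counted. With the replicate number as a block in limma, the unadjusted p of Cybrd1 was 0.00455, but its adjusted p was 0.404. In that fit 1 of the 10 members had an unadjusted p under 0.05, against 6.76% of all genes. No label says what libraries of the same replicate number share. The block left 0 members called, against 0.162% of all genes (22 genes). Without mutant 2 the log2 change of Cybrd1 was 0.12.

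Slc11a2 encodes DMT1, which imports ferrous iron across the brush border together with protons (chr15:100218331-100253486, minus strand). Its level was 155, 198 and 253 FPKM in the controls and 179.8, 542 and 114 in the mutants, with means of 202 ± 49.0 and 279 ± 231. Mutant 2 held the highest value, 2.14 times the next library, and mutant 3 the lowest, so the mutants enclosed all 3 controls. The log2 change was 0.17 ± 0.59 (95% interval -1.30 to 1.64, limma adjusted p = 0.999). Leaving out mutant 2 turned it to -0.47. The differences by replicate number were 0.21, 1.45 and -1.15. Slc11a2 varied more than nearly all abundant genes: its SD of log2 values within groups ranked 62 among the 1058 tested genes with a mean of 100 FPKM or more, and 2.22% of all tested genes had a larger SD. Cybrd1 ranked 155 on that scale.

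Slc11a2 RNA ends in 2 ways, and the deposited models separate them. The 4373-base model ends at the same base, chr15:100223089, as a GENCODE transcript whose last exon (chr15:100223089-100225754) holds the hairpin printed above. A 3023-base model runs farther downstream and ends at chr15:100218331, within 2 bases of another GENCODE transcript whose last exon does not hold the hairpin. The files give no exons, so both models were matched by their 3′ ends alone. Both models begin at chr15:100253486, whereas the GENCODE transcript that ends at the same base as the 4373-base model begins farther upstream, at chr15:100254586. A form with that start could not be followed. The form with the IRE was at 141, 185 and 233 FPKM in the controls and at 168, 529 and 100.5 in mutants, a 5.27-fold range, with a log2 change of 0.18 ± 0.59. The form without it was at 14.3, 13.8 and 19.7 in controls and at 12.1, 13.1 and 13.2 in mutants. These 3 mutant values lay below all 3 controls, at a log2 change of -0.29 ± 0.15, but it was not called (limma p = 0.106, adjusted p = 0.999 over 16213 isoforms, exact permutation p = 0.1, the smallest possible). Of the 13 member isoforms tested this was the 1 whose groups were separated, against 8.21% of all isoforms, and 0 of the 13 were called, against 0.00617% (1 isoform). The IRE form made up 90.8%, 93.0% and 92.2% of Slc11a2 in controls and 93.3%, 97.6% and 88.4% in mutants (exact permutation p = 0.7). The high value of mutant 2 thus lay in the IRE form, while its other form was within 1 FPKM of the other mutants.

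**Figure D2:**
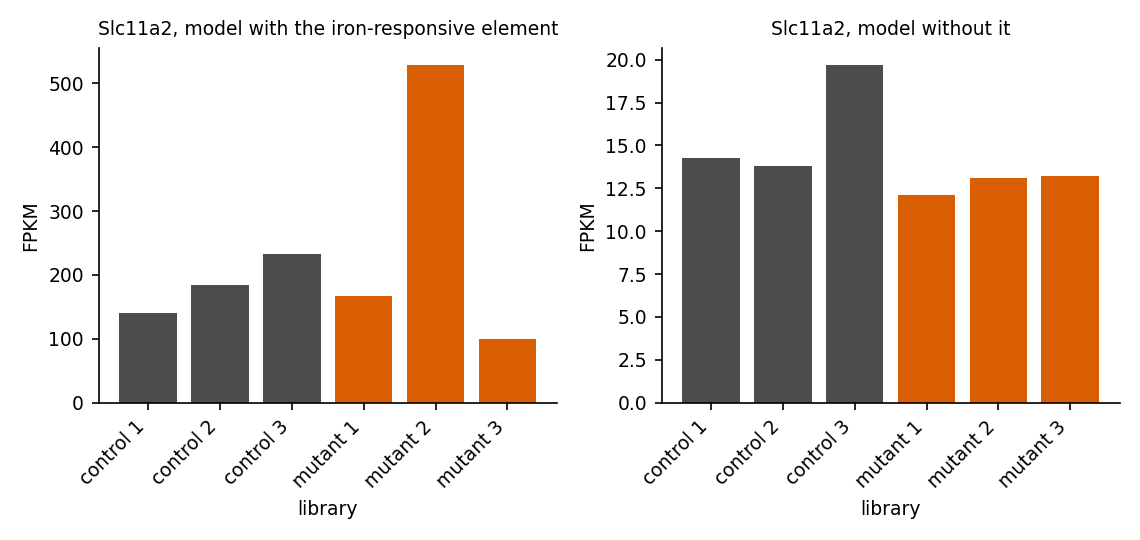
FPKM of the 2 Slc11a2 transcript models in each library (bars, gray for controls and orange for mutants; the 2 panels have different vertical scales, both from 0). The model with the iron-responsive element runs from 100.5 to 529 FPKM with mutant 2 highest, and the model without it from 12.1 to 19.7 with the 3 mutants lowest.

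Slc46a1 encodes a proton-coupled folate transporter that was also described as a heme carrier of the brush border (chr11:78279203-78285447). It was at 535, 437 and 309.9 FPKM in the controls and at 471, 542 and 387 in mutants, with means of 428 ± 113 and 467 ± 77.6. Both libraries numbered 3 were lowest in their group, and the groups overlapped. The log2 change was 0.15 ± 0.23 (fold 1.11, 95% interval 0.76 to 1.61, limma adjusted p = 0.999).

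Fth1 encodes the ferritin heavy chain, which carries the ferroxidase site of the iron storage shell (chr19:10057193-10059582). It was at 16242, 12797 and 14692 FPKM in the controls and 16545, 14209.6 and 13362 in mutants, with means of 14577 ± 1725 and 14706 ± 1648. Its mean ranked 3 among all genes, it was among the first 3 genes in every library, and it held 2.10% of the summed FPKM in each group. The groups overlapped almost fully, with a log2 change of 0.01 ± 0.23 (fold 1.01, 95% interval 0.70 to 1.46, limma adjusted p = 0.999).

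Ftl1, the ferritin light chain that helps iron mineralize inside the shell (chr7:52713314-52715256), was at 979, 961 and 1145 FPKM in the controls and 1160.0, 967 and 989.7 in mutants. Its means were 1028 ± 102 and 1039 ± 106, a log2 change of 0.01 ± 0.16 with an interval for the fold of 0.78 to 1.30. Ftl1 was the only member with near-identical copies in the mm9 genome: 4 stretches matched at least 50% of its transcript at 97.4% to 99.6% identity, so its level is uncertain where the authors' counting could split reads among them. The ratio of heavy to light chain FPKM was 16.6, 13.3 and 12.8 in controls and 14.3, 14.7 and 13.5 in mutants. Its means were 14.2 ± 2.04 and 14.2 ± 0.607 (exact permutation p = 1). Both transcripts carry the 5′ UTR hairpin, so translation of this RNA is not read by these values. Globin and other erythroid markers, 4 of 8 of which reached 0.5 FPKM in at least 3 libraries, summed to 76.2 to 462 FPKM in the controls and 73.9 to 253 in mutants, with Slc4a1 listed at 0 in 5 libraries; their part in the ferritin levels was not tested.

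Slc40a1 encodes ferroportin, the iron exporter of the basolateral membrane (chr1:45964915-45982439, minus strand). It was at 510.4, 418 and 526 FPKM in the controls and at 598, 589 and 490.0 in mutants, with means of 485 ± 58.5 and 559 ± 59.8. Mutants 1 and 2 were above all controls and mutant 3 was between them. The log2 change was 0.21 ± 0.16 (fold 1.15, 95% interval 0.89 to 1.49, limma adjusted p = 0.999). Without both libraries numbered 3 it was 0.36 ± 0.13 with an adjusted p of 0.295, the lowest adjusted p of any member in any setting, and with 1 library left out the change ran from 0.10 (without control 2) to 0.30. The files hold 1 model for this gene, so a transcript start without the IRE could not be followed. Macrophages also express ferroportin, and 10 macrophage markers, 9 of them expressed, summed to 311 to 356 FPKM in the controls and 267 to 408 in mutants, highest in mutant 3; their part in the level was not tested.

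Heph encodes hephaestin, the membrane ferroxidase that works beside ferroportin (chrX:93650775-93769823). It was at 105, 104 and 85.2 FPKM in the controls and 109, 117 and 83.3 in mutants, with means of 98.1 ± 11.2 and 103 ± 17.4. Again both libraries numbered 3 were lowest, and the log2 change was 0.06 ± 0.16 (fold 1.04, interval 0.80 to 1.35). Heph is X-linked, and mutants 2 and 3 were the libraries with Xist; its part in the level of Heph was not tested. Of 4 transcript models, the 4665-base model held 80.9%, 80.9% and 84.7% of Heph in controls and 79.3%, 78.1% and 80.6% in mutants. These shares did not overlap, but by a narrow margin, 80.6% in mutant 3 against 80.9% in controls 1 and 2. Their means were 82.2% ± 2.18 and 79.4% ± 1.22, and an exact permutation p of 0.1 is the smallest the design allows. How often such shares separate over all genes was not counted. The next model is 4662 bases long and held 15.6% ± 1.72 and 17.7% ± 1.84, so the split rests on 2 models of nearly the same length.

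Tfrc encodes transferrin receptor 1, which takes up transferrin iron from the blood side, most of all in dividing crypt cells (chr16:32608982-32632880). It was at 46.9, 53.8 and 48.8 FPKM in the controls and at 43.9, 59.7 and 50.7 in mutants, with means of 49.9 ± 3.58 and 51.4 ± 7.93. Mutant 1 was lowest and mutant 2 highest. The log2 change was 0.04 ± 0.13, and the 95% interval for the fold ran from 0.82 to 1.27. The 4 Tfrc hairpins printed above are of the kind through which low iron stabilizes this RNA. Sites of another form would not have matched the pattern. The 8 markers of proliferating crypt cells summed to 219 to 253 FPKM in the controls and 185 to 253 in mutants.

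Hmox1 encodes heme oxygenase 1, the inducible enzyme that opens the heme ring and frees its iron (chr8:77617517-77624492). It was the least abundant member, at 2.51, 3.90 and 7.24 FPKM in the controls and 5.13, 3.63 and 5.66 in mutants, with means of 4.55 ± 2.43 and 4.80 ± 1.05. These values rest on 90 to 212 fragments per library, against 182892 to 279575 for Fth1. The controls spanned a wider range than the mutants: the authors' interval for control 1 ended at 3.04 FPKM and that for control 3 began at 6.24. The log2 change was 0.16 ± 0.35 (fold 1.12, 95% interval 0.63 to 2.00, limma adjusted p = 0.999).

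Epas1, the HIF-2 alpha gene that sets the transcription of several of the others (chr17:87153204-87232750), was at 41.7, 44.5 and 35.7 FPKM in the controls and 41.7, 44.7 and 37.4 in mutants. Its means were 40.6 ± 4.46 and 41.2 ± 3.68, with a log2 change of 0.02 ± 0.12 and the narrowest interval of the 10 genes, 0.83 to 1.24 for the fold. HIF-2 alpha is controlled mainly at the protein level, which RNA does not show. Values of the same replicate number nearly coincided, with log2 differences of -0.0021, 0.0083 and 0.064.

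**Figure D3:**
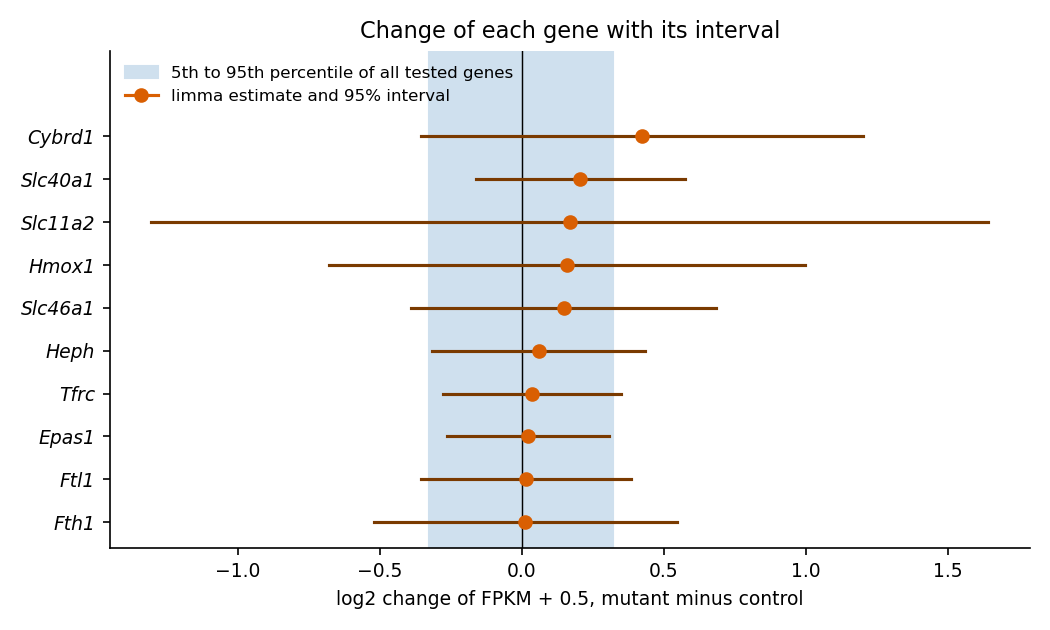
Estimated log2 change of each gene, mutant minus control (points), with its 95% interval from limma (lines); the blue band spans the 5th to the 95th percentile of the change over all tested genes, -0.33 to 0.32. All 10 intervals include 0, the widest being that of Slc11a2 (-1.30 to 1.64), and only the point of Cybrd1 lies outside the band.

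On the log2 scale, the spread within groups differed more from gene to gene than the change between control and mutant did. The SD of log2 values within groups was 0.85 for Slc11a2, 0.53 for Hmox1, 0.49 for Cybrd1 and 0.33 for Slc46a1, and between 0.14 and 0.22 for the other 6, beside a median of 0.18 over all tested genes. Mutant 2 held the highest value of 6 members: Cybrd1, Slc11a2, Slc46a1, Heph, Tfrc and Epas1. For 4 of these, Cybrd1, Slc46a1, Heph and Epas1, control 3 was the lowest control and mutant 3 the lowest mutant. The shares of all genes with these orders were not counted. Over all tested genes, the deviations of control 3 and mutant 3 from their group means correlated at 0.58. The summed villus markers were also highest in mutant 2 and lowest in those 2 libraries, although Alpi, Lct, Apob and Sis were each highest in another library. Apoa1, Apoa4, Fabp1 and Fabp2 were the largest terms of that sum. Vil1 was lowest in the same 2 libraries too, but by less, at 561 and 528 FPKM against 578 to 702 in the others. The part of these markers in the levels was not tested. The other 6 members did not follow the order of those 4 genes: control 3 was the highest control for Slc11a2, mutant 1 the lowest mutant for Tfrc, and Hmox1 was higher in control 3 than in any other library.

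**Figure D4:**
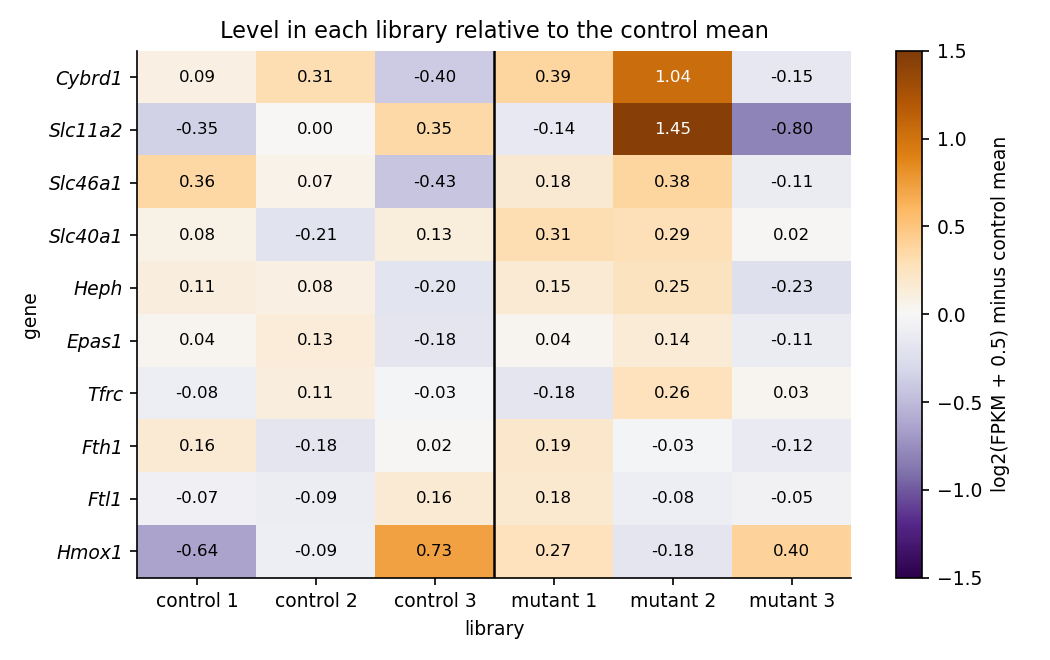
Level of each gene in each library as log2(FPKM + 0.5) minus its control mean (colour and printed value). Orange marks higher and purple lower values; mutant 2 reaches 1.45 for Slc11a2 and 1.04 for Cybrd1, and mutant 3 is at -0.80 for Slc11a2.

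**Figure D5:**
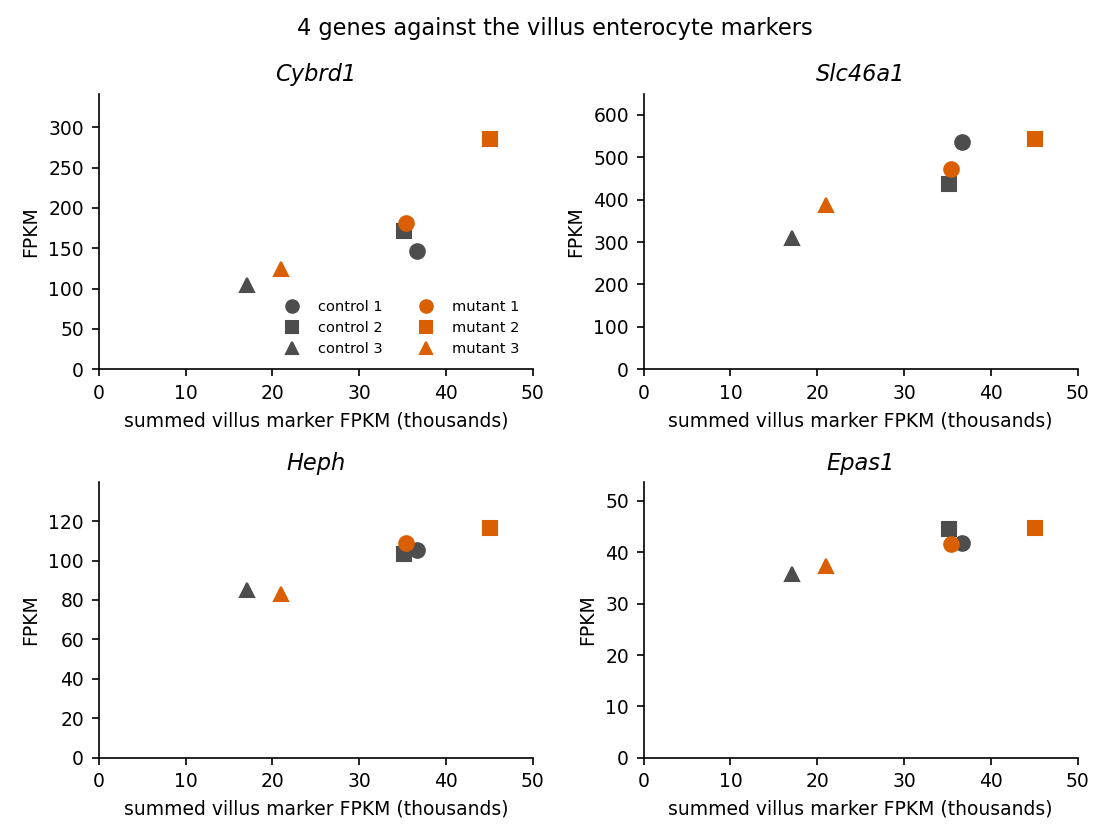
FPKM of Cybrd1, Slc46a1, Heph and Epas1 (vertical axes, from 0) against the summed FPKM of 10 villus enterocyte markers in the same library (horizontal axes); gray symbols are controls and orange symbols mutants. Control 3 and mutant 3 sit at the left with the lowest values of each gene, and mutant 2 at the right with the highest. These genes were plotted because they follow that order, so the match follows from the choice, and the other members are not shown.

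The profiles most like those of Slc11a2 and Cybrd1, the 2 members with the largest SD over all 6 libraries (0.77 and 0.50, with Hmox1 next at 0.48), were looked for by the root mean square difference of gene-centred log2 values over the 6 libraries. For Slc11a2 they were Neu3 (0.34), Ankrd37 (0.37) and Rsad2 (0.38), against an SD of 0.77 for Slc11a2 itself. Ankrd37, a hypoxia target, was at 5.22, 7.14 and 9.07 FPKM in the controls and 5.89, 20.9 and 7.98 in mutants, and Rsad2 at 3.72, 3.43 and 8.02 and at 4.72, 17.5 and 4.94. Their high value in mutant 2 follows from how they were chosen. For Cybrd1 they were Ehbp1 (0.10), Svip (0.14) and Btn3a3 (0.15), against an SD of 0.50. Ehbp1 was at 4.35, 4.60 and 2.40 FPKM in the controls and 4.71, 8.12 and 2.80 in mutants.

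Around the 10 genes, 83 further genes of iron, heme and hypoxia biology in 8 lists were examined, of which 75 were tested. None was called higher or lower, as for the members, and 3 of the 75 had an unadjusted p under 0.05, near the 3.43% of all genes, all with higher mutant values. The log2 change was above 0 for 48 and below 0 for 27, with a median of 0.07 beside -0.02 over all genes. The groups of 5 genes (6.67%, against 7.75% of all genes, so no more often than in the background) were fully separated, all with higher mutant values: Slc39a4, a zinc importer, Slc31a1, Mt1, Ndrg1 and Hmox2, the constitutive heme oxygenase. Hmox2 was at 45.1, 44.2 and 43.6 FPKM in the controls and 50.7, 52.1 and 49.2 in mutants, a log2 change of 0.19 ± 0.09 (limma adjusted p = 0.999). Those 3 low p-values belonged to Slc31a1, a copper importer, Mt1, a metallothionein that binds zinc and copper, and Ndrg1, a hypoxia target, and each had an adjusted p of 0.999.

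For the iron regulatory proteins and ferritin traffic, 7 genes were tested, with a median log2 change of 0.02. The most abundant, Ncoa4, the receptor that delivers ferritin to lysosomes, was at 724, 647 and 413 FPKM in the controls and 755, 669 and 396 in mutants, lowest in both libraries numbered 3. Pcbp1, an iron chaperone for ferritin, was at 202 ± 11.5 and 195 ± 8.89. For transferrin, hepcidin and ferroxidase genes the median of 7 was 0.10, with Trf (transferrin) at 10.6 ± 1.35 and 11.4 ± 0.728 FPKM and Hfe, a partner of transferrin receptor 1, at 5.01 ± 1.13 and 5.83 ± 0.499.

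Among 17 other metal carriers and reductases the median was 0.08. Mt1 was at 369, 193 and 1020 FPKM in the controls and 1168, 1087 and 1706 in mutants, separated by a narrow margin, with a log2 change of 1.63 ± 0.61 (limma adjusted p = 0.999). Its neighbour Mt2 was at 116, 28.4 and 383 and at 80.1, 56.9 and 394, with the groups overlapping and both libraries numbered 3 highest. In heme synthesis the median of 9 was 0.08: Alas1, the first enzyme of the pathway, was at 74.8, 73.8 and 53.5 FPKM in the controls and 95.8, 85.2 and 52.2 in mutants, and Alad, the next, at 67.3 ± 22.5 and 75.8 ± 51.5. In iron-sulfur cluster assembly the median of 8 was 0.06, with Hspa9, a mitochondrial chaperone, at 177 ± 8.23 and 175 ± 6.33 and Glrx5, a glutaredoxin, at 91.8 ± 12.7 and 95.7 ± 16.8.

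For heme transport and breakdown the median of 9 was -0.05. Pgrmc1, a heme-binding membrane protein, was at 229 ± 27.0 and 235 ± 64.0 FPKM, and Blvrb, a biliverdin reductase, at 51.4 ± 16.0 and 52.1 ± 20.7. In the hypoxia-inducible factor pathway the median of 8 was 0.02. Egln2, a prolyl hydroxylase that marks the factor for decay, was at 45.1 ± 1.55 and 44.6 ± 1.85. Its relative Egln3 was at 29.6, 27.3 and 31.6 FPKM in the controls and 67.3, 52.3 and 21.5 in mutants, so mutants 1 and 2 lay above and mutant 3 below every control. Its log2 change of 0.52 ± 0.41 was not called with all libraries (limma adjusted p = 0.999), and it depended on single libraries: it was 1.00 without mutant 3 (adjusted p = 0.0378), 0.37 without mutant 2 and 0.19 without mutant 1 (both adjusted p = 1.00).

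General hypoxia targets had the highest median of the 8 lists, 0.25 over 10 genes, 9 of them above 0 and none called. Car9, a carbonic anhydrase, was at 128, 82.6 and 67.9 FPKM in the controls and 129, 163 and 61.2 in mutants, and Vegfa, an angiogenic factor, at 29.8 ± 1.48 and 28.6 ± 5.08. Ndrg1 was at 16.7, 18.9 and 14.6 and at 23.2, 28.1 and 19.0, separated by a narrow margin, with a log2 change of 0.46 ± 0.16 (limma adjusted p = 0.999).

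The authors' deposited table compares the groups by means of normalized counts and called none of the members. All 10 had in the authors' deposited table an adjusted p of 1, against 0.14% of 18605 genes under 0.05 (26 genes), with unadjusted p-values of 0.217 to 0.868. The fold changes in the authors' deposited table were 1.45 for Cybrd1, 1.47 for Slc11a2 and 1.18 for Slc40a1, and between 1.03 and 1.12 for the other 7.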

How the data were processed

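RNA of the duodenum was prepared with a TruSeq RNA kit and run on a HiSeq2000, per the labels' protocols and the series' design text. The submitters' processing notes list mm9 and the tools TopHat, Cufflinks, DESeq and CASAVA 1.8.2; their options are not given in the sources used here. The authors deposited FPKM per gene and per isoform for each library, with intervals, and a coverage signal per isoform, per the file headers. A table deposited by the authors holds group means of normalized counts (a signal), the fold change as a ratio, its log2 and p-values. It holds no count per library. Depth in fragments (21.0 to 26.3 M) was derived from the constant ratio of FPKM to coverage.

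Genes and isoforms with an FPKM of at least 0.5 in 3 libraries were compared as log2(FPKM + 0.5), which understates changes of low genes, with limma 3.58.1 (trend and robust prior, statmod 1.5.0, R 4.3.3) in a two-sided test, adjusted by Benjamini-Hochberg over all features, at a threshold of 0.05. The script was tested on simulated data with independent noise in each library and planted changes larger than the members' estimates. Shares and ratios were compared by exact permutation over libraries, grouped by their titles. Python 3.11.15, pandas 2.3.3, numpy 2.4.6, scipy 1.17.1 and matplotlib 3.10.9 served for summaries, and minimap2 2.31-r1302 for copies (at least 95% identity over at least 50% of a transcript). Hairpins were searched in GENCODE transcripts of the mm9 genome.

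The members and lists were chosen with earlier results of these data known. All members are named; of each list, genes past the threshold or else the 2 of highest mean; and for the 2 members of largest SD over all 6 libraries the 3 nearest profiles. Slc31a1, Slc39a4, Hmox2, Ndrg1 and the library-level genes were named after their values were seen. Tfr2, Flvcr1 and Flvcr2 were matched by synonym.

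Deviations of same-numbered control and mutant libraries correlated at 0.26, 0.25 and 0.58, so the replicate number served as a block in an alternative, although no label says what libraries of 1 number share and mutant 2 correlated at 0.30 with control 1. Other alternatives were the pseudocount, the filter, scaling, the prior, feature length and each library left out; leaving out both libraries numbered 3 was added after seeing the data.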

Additional observations from a re-analysis of the deposited data

How the results depend on the processing

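No member was called under any of the 18 alternatives, their lowest adjusted p (limma) being 0.295. Among all genes 3 were called, but 1 without the low-value filter, 1 with upper quartile scaling, 0 without features under 200 bases, 22 with the replicate block, 2 to 68 with 1 library left out (68 without mutant 3, 8 without mutant 1), and 200 without both libraries numbered 3. Isoform calls (1) came to 4 without the filter, 5 without trend and robust prior, 0 without models under 200 bases, 3 with the block, 1 to 20 with 1 library left out (20 without mutant 3) and 23 without those numbered 3. List genes called (0) came to 0 to 1 with 1 library left out; the 1, without mutant 3, was Egln3, also the 1 without both libraries numbered 3 (adjusted p 0.0055). The replicate block changed no call of a member or list gene. The cause of these shifts was not tested.

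Of 180 member values of log2 change, 22 changed sign, in 8 members and none of them called; Cybrd1 and Slc40a1 did not. Under TPM scaling Fth1 was at -0.0055 and Ftl1 at -0.0049; under quantile normalization Ftl1 was at -0.015. Scaling without pancreas and gland markers gave Fth1 -0.026, Ftl1 -0.025, Tfrc -0.0030 and Epas1 -0.015. With 1 library left out, Cybrd1 ran from 0.12 to 0.71, Slc40a1 from 0.10 to 0.30, Slc11a2 from -0.47 to 0.65, Heph from -0.038 to 0.20, Fth1 from -0.077 to 0.095, Ftl1 from -0.068 to 0.094, Tfrc from -0.077 to 0.14, Hmox1 from -0.16 to 0.52, Slc46a1 from -0.066 to 0.33 and Epas1 from -0.065 to 0.092. Isoform shares and the ferritin ratio moved by less than the larger group SD with 1 library left out, although the differences in the Slc11a2 shares, the smallest Heph share tested and the ferritin ratio changed sign. With 3 libraries a group, the 95% intervals reach folds of 2.30 for Cybrd1, 3.12 for Slc11a2 and 2.00 for Hmox1, which also rests on few fragments.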
